A study of Homo sapiens with 12 samples.

Results

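The splicing of their own transcripts was followed for 7 genes that act on RNA: DDX5, DDX39A, FUBP1, RBM3, CIRBP, CLK1 and CLK4. They are 7 of the 19460 genes in the deposited expression table, and they were picked because earlier results of the same libraries showed differences in how their RNA was spliced. Of 145447 alternative splicing events listed for all genes, 156 belonged to these genes, and 49 of them held enough reads of both forms to be fitted, of 37445 fitted in all. The material was T-47D, an established line of luminal, oestrogen receptor-positive breast cancer cells from ATCC, labelled wild type and grown in DMEM with fetal bovine serum. Cells received 1 µM palbociclib, an inhibitor of the cell cycle kinases CDK4 and CDK6, or the solvent DMSO, for 24 h. Poly(A) RNA was sequenced from 3 libraries per treatment, and open chromatin was profiled by ATAC-seq in 3 further libraries per treatment. A single cell line was used, so the p-values measure the spread between cultures of that line, or between libraries where the cultures were not separate.

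The genes act at different steps of RNA handling. DDX5 and DDX39A are DEAD-box helicases, enzymes that use ATP to open RNA duplexes or to release proteins from RNA. DDX5 takes part in splicing, transcription and microRNA processing, and DDX39A, a close relative of DDX39B, loads export factors onto spliced mRNA. FUBP1 binds single-stranded nucleic acid through KH domains and takes part in MYC transcription and in splicing. RBM3 and CIRBP are small glycine-rich RNA-binding proteins known for their induction by mild cold. CLK1 and CLK4 are kinases that phosphorylate SR proteins and thereby set the activity of these splicing factors. Many such genes control their own output through introns that stay in the poly(A) RNA, or through poison exons, whose inclusion places a premature stop in the message.

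The libraries held 52242249 to 75371638 reads in the table of exon skipping events and 12830062 to 18250496 reads in the accessible peaks. All 8 luminal epithelial markers were present, with group means from 43.17 to 2916 FPKM (fragments per kilobase of transcript and 1000000 fragments). By limma at an adjusted p of 0.05, 7 of the 8 were higher after palbociclib, beside 20.9 percent of all genes tested. Their log2 differences ran from 0.135 (FOXA1) to 0.595 (PGR). The summed level of the 8 markers was 5419 to 5940 FPKM in DMSO and 7312 to 8084 FPKM with palbociclib. Of the markers of other cells, PTPRC, CD3E, LYZ, PECAM1, CDH5, VWF, KRT5, KRT14, PDGFRB and DCN had no row in the table, and LUM and TP63 had means under 0.2 FPKM. The fibroblast marker COL1A1 stood at 23.65 and 25.12 FPKM in DMSO and palbociclib, while its partner COL1A2 was at 0.4528 and 0.315. The part that these markers have in the results was not tested. In bulk RNA, fewer cells of a type and less RNA per cell cannot be told apart.

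For each event the splicing tables give reads of a longer form, which includes an intron, an exon or an exon extension, and reads of a shorter form that skips it. The inclusion level is the longer form's share after both counts are divided by the length over which they can fall. By the quasi-likelihood test of edgeR, 9 of the 49 fitted events passed an adjusted p of 0.05, beside 0.35 percent of all fitted events. Since the genes were chosen on this contrast, nothing is read from that excess, and the events are described without a p of their own. All 9 had higher inclusion after palbociclib and 0 had lower inclusion. Over all fitted events, 0.246 percent were called with higher and 0.104 percent with lower inclusion, which is 92 and 39 of the 131 called. Higher inclusion was thus the more frequent direction of called events in the whole series. At an unadjusted p under 0.05 there were 24 of 49, and DESeq2 called 8. The shares of all fitted events at these settings are not given here, so nothing is read from either count. The same limit holds for such counts of single genes and lists below, and for counts at other settings or with libraries left out. The 9 events used only 5 different short-form junctions, since several longer forms are counted against the same shorter one, so they are not 9 separate observations. They lay in DDX5 (4 of 11 fitted events), DDX39A (3 of 6), FUBP1 (1 of 6) and RBM3 (1 of 6). No event was called in CIRBP (0 of 8), CLK1 (0 of 3) or CLK4 (0 of 9), so a shift in splicing is not established by this test for those 3 genes. At an unadjusted p under 0.05, CIRBP had 2 events, CLK1 had 0 and CLK4 had 4, and DESeq2 called 0 in each. Leaving out 1 RNA library at a time gave 6 to 10 called events.

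The 3 palbociclib levels lay apart from the 3 DMSO levels in 17 of the 49 events, 14 higher and 3 lower, beside 13.7 percent of all fitted events. DDX39A had 6 such events, DDX5 had 4, FUBP1 had 3 and CIRBP had 1, all higher, and CLK4 had 3, all lower. RBM3 and CLK1 had 0. The median difference over the 49 events was 1.7 percentage points, and that over all 37445 fitted events was -0.072 points. Since the genes were chosen on this contrast, nothing is read from either difference to the background. The 49 events use 36 different short-form junctions, so the events that lie apart are not all separate observations.

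**Figure D1:**
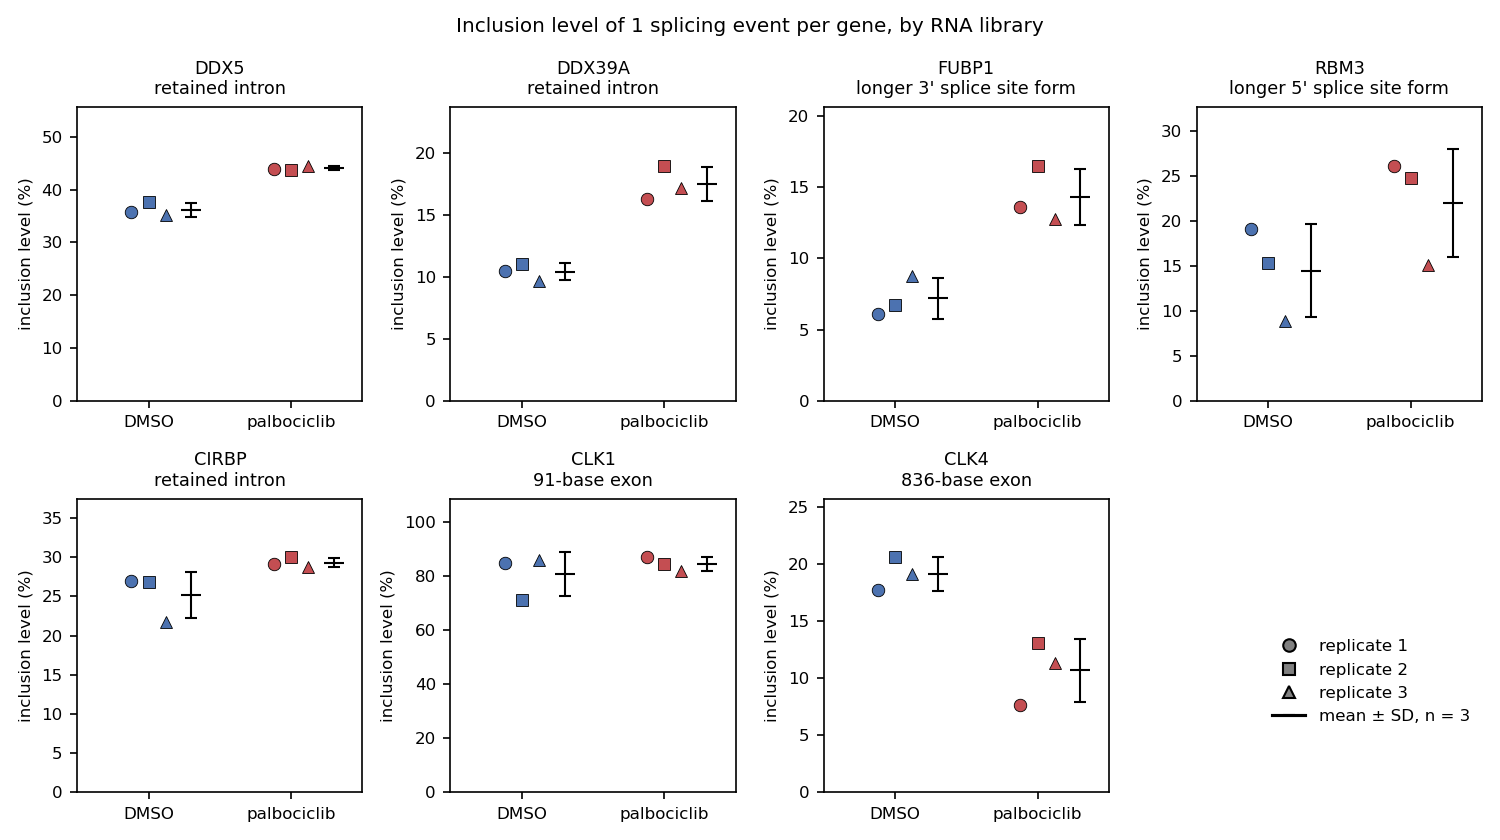
Inclusion level in percent (vertical axes, from 0) of 1 event per gene in the 3 DMSO (blue) and 3 palbociclib (red) RNA libraries, with the symbol giving the replicate number and the bar the mean ± SD. The groups lie apart for DDX5, DDX39A, FUBP1 and CIRBP, where palbociclib is higher, and for CLK4, where it is lower; they overlap for RBM3 and CLK1.

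The DDX5 change sat in 1 intron, which holds 2 microRNA genes. It spans chr17:64500774-64502009 on the minus strand (1236 bases, build GRCh38). MIR3064 fills its last 66 bases, so the 3′ end of the hairpin is the AG of the intron's 3′ splice site, and MIR5047 lies upstream at chr17:64501214-64501313. The sequences are shown because the retained form carries both microRNA genes uncut. They are from RefSeq (GRCh38.p14), and all are on the minus strand. In the hairpin, at chr17:64500774-64500839, the capitals mark the last 2 bases of the intron, and in the mature microRNAs they mark the seed, bases 2 to 8. The 3 seeds differ from each other. The microRNAs themselves were not measured in these libraries.
MIR3064 hairpin: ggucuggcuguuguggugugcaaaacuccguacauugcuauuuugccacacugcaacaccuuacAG
hsa-miR-3064-5p: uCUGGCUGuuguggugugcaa
hsa-miR-3064-3p: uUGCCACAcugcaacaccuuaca
hsa-miR-5047: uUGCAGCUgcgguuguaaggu

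The intron was retained at 35.8%, 37.6% and 35.1% in DMSO and at 43.9%, 43.7% and 44.5% with palbociclib. Every palbociclib library lay above every DMSO library, and the means were 36.17% ± 1.32 and 44.05% ± 0.37 (SD, n = 3 each), a difference of 7.88 points. The level rested on 18430 to 37452 reads of the retained form and 2532 to 3524 reads across the splice junction per library, which makes it the most deeply read event among the 7 genes.

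Inclusion can move because either form moves, so each form was also scaled to 1000000 reads of its event table (RPM). The retained form of DDX5 went from a mean of 3006 to 4221 RPM, a ratio of 1.40, with no overlap between the groups. The spliced form stood at 394.1 and 397.6 RPM, a ratio of 1.01, with overlapping groups. On this scale, the difference in share came with more reads in the intron and a similar number across it. Reads across the DDX5 introns at chr17:64502224-64502438 and chr17:64502550-64502925 were higher, with ratios of 1.167 and 1.104 and no overlap. Across that at chr17:64503869-64503982 the ratio was 1.075, with overlapping groups. The similar number is thus not relative to the RNA level of the gene. Whether it lagged behind the other junctions was not tested.

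Within the same intron, 3 further 3′ splice sites were listed, and all 3 were called. The extension of 1118 bases, which starts near the upstream end, was included at 33.6%, 35.5% and 33.1% in DMSO and at 41.7%, 41.0% and 42.1% with palbociclib. The extension of 370 bases was at 30.0%, 32.0% and 28.3% against 37.5%, 36.9% and 37.8%. That of 109 bases, which holds the whole MIR3064 hairpin, was at 27.3%, 28.1% and 24.6% against 33.4%, 32.7% and 33.7%. In each case the palbociclib libraries lay above the DMSO libraries, by 7.54, 7.36 and 6.64 points in the mean. These extensions share their junction reads for the shorter form, and part of their reads for the longer one, with the retained intron. The call for the 109-base extension was lost without DMSO replicate 3 or palbociclib replicate 3, when its difference was 5.62 and 6.42 points. Without the minimum share of the minor form, the calls of all 3 extensions were lost and that of the retained intron was kept.

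Other introns of DDX5 did not share the difference. The intron at chr17:64502224-64502438 (215 bases) was retained at 5.73% ± 0.59 in DMSO and 5.61% ± 0.28 with palbociclib (SD, n = 3 each). The intron at chr17:64502550-64502925 was at 1.70% ± 0.06 and 1.87% ± 0.17, and that at chr17:64503869-64503982 at 4.23% ± 0.56 and 4.29% ± 0.14. The groups overlapped in all 3. An 87-base exon inside the long intron varied from 27.9% to 68.0% over the 6 libraries, with groups that overlapped.

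**Figure D2:**
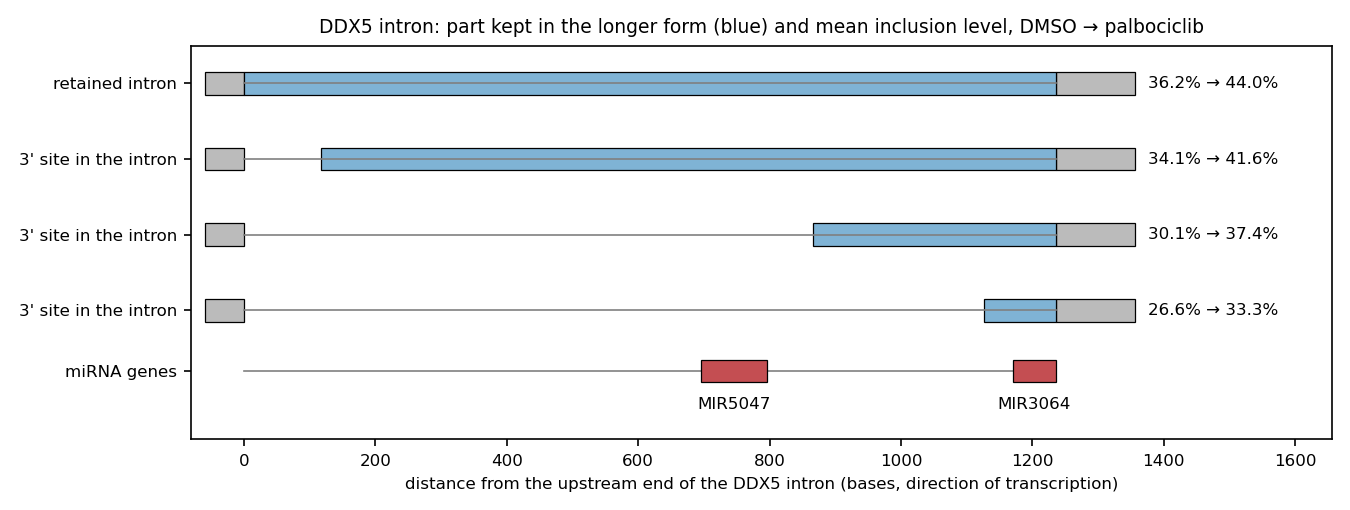
Map of the DDX5 intron, drawn to scale in bases from its upstream end in the direction of transcription (horizontal axis), with the part kept in each longer form in blue, the flanking exons in grey and cut short, and the 2 microRNA genes in red. The labels give the mean inclusion level in DMSO and palbociclib; all 4 forms were higher by 6.64 to 7.88 points, and each keeps the MIR3064 end of the intron.

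DDX39A differed from DDX5 in that the RNA of the gene was lower, and the spliced form was lower by more than the retained one. The intron at chr19:14409874-14410215 (342 bases, minus strand) was retained at 10.5%, 11.1% and 9.7% in DMSO and at 16.3%, 19.0% and 17.2% with palbociclib. The groups lay apart, at 10.45% ± 0.67 and 17.51% ± 1.39 (SD, n = 3 each). Reads of the spliced form went from 149.4 to 54.71 RPM, a ratio of 0.37, and those of the retained form from 77.54 to 51.9 RPM, a ratio of 0.67, each with no overlap. A longer form with a 3′ splice site 108 bases upstream of the usual one lies in the same intron. It was included at 8.2%, 7.2% and 6.3% in DMSO and at 12.7%, 15.3% and 14.0% with palbociclib. It is counted against the same spliced junction, and its 108 bases are the end of the retained intron. Part of its reads can therefore be those of the retained form, and its level is not the use of that site alone.

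The remaining 4 fitted events of DDX39A were also higher in every palbociclib library than in any DMSO library. An 88-base intron further downstream, chr19:14409448-14409535, was at 6.2%, 5.1% and 4.3% in DMSO and at 9.3%, 10.6% and 6.6% with palbociclib, and was called. That call was lost without DMSO replicate 2 or 3 or palbociclib replicate 1 or 2, when the difference was 3.58, 3.20, 3.41 and 2.77 points against 3.64 with all libraries. It was also lost without the minimum share of the minor form and with adjustment over all event types. A 334-base intron near the middle of the gene, chr19:14412679-14413012, was at 2.72% ± 0.44 and 4.42% ± 0.13. A 185-base exon was at 3.94% ± 0.63 and 6.08% ± 0.87, and a 58-base exon with the same start in the direction of transcription was at 4.02% ± 0.89 and 6.44% ± 1.06. These 3 were not called.

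FUBP1 showed opposite movement of the 2 forms at a 3′ splice site. The longer form adds 140 bases, chr1:77948775-77948914 on the minus strand, a length that is not a multiple of 3. It was included at 6.1%, 6.7% and 8.8% in DMSO and at 13.6%, 16.5% and 12.8% with palbociclib, with no overlap. The means were 7.22% ± 1.40 and 14.3% ± 1.91 (SD, n = 3 each). Reads of the longer form went from 19.56 to 30.23 RPM, a ratio of 1.55, and those of the shorter form from 104.3 to 75.28, a ratio of 0.72. Both forms lay apart between the groups. The call held in all 12 alternatives run.

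A neighbouring pair of FUBP1 exon forms, of 100 and 95 bases, is read against a junction that skips to the same upstream exon. The 100-base form was included at 71.3%, 59.9% and 58.2% in DMSO and at 96.7%, 88.8% and 82.5% with palbociclib. The 95-base form was at 71.8%, 66.0% and 64.8% against 96.8%, 89.1% and 84.0%. Both were higher in every palbociclib library, yet neither was called, and the skipping form had only 1 to 5 reads per library. Inclusion reads of the 100-base form numbered 14 to 15 in DMSO and 32 to 59 with palbociclib. The remaining 3 fitted events of FUBP1 differed by -2.75 to 0.82 points and overlapped.

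In RBM3 the inclusion of 1 exon extension varied as much between libraries of the same treatment as between the treatments. The longer form of a 5′ splice site adds chrX:48575668-48576083 (416 bases, plus strand). It was included at 19.1%, 15.3% and 8.9% in DMSO and at 26.1%, 24.7% and 15.1% with palbociclib. The replicate numbers fell in the same order in both treatments, and each was higher with palbociclib, but the labels state no pairing. The groups overlapped, since palbociclib replicate 3 lay below DMSO replicates 1 and 2, although the event was called, with means of 14.41% ± 5.16 and 22.0% ± 5.98 (SD, n = 3 each). DESeq2 did not call it, nor did edgeR without the minimum share of the minor form. Its call was also lost without DMSO replicate 2 or 3 or palbociclib replicate 2, when the difference was 8.04, 4.81 and 6.23 points against 7.59 with all libraries. Reads of the longer form went from 104.0 to 130.8 RPM and lay apart, a ratio of 1.26, while the shorter form overlapped, at 133.8 and 97.01, a ratio of 0.73.

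Exon events inside the same stretch of RBM3 ran in parallel. A 269-base exon, chrX:48575815-48576083, was included at 18.2%, 14.1% and 7.6% in DMSO and at 25.5%, 22.6% and 13.7% with palbociclib. A 162-base form with the same end was at 10.99% ± 5.01 and 17.46% ± 5.73. All 3 longer forms are counted against the same junction. The 416-base extension consists of the 269-base exon and the 147-base intron before it. In DMSO the extension had 529, 759 and 489 inclusion reads and the 269-base exon had 358, 494 and 298. Part of the reads of the extension can therefore be those of the exon. Its level is not the use of the 5′ splice site alone, and these events are not separate observations. The pair of mutually exclusive exons with most reads was at 86.3%, 89.2% and 93.8% in DMSO and at 82.9%, 85.0% and 89.6% with palbociclib, which overlapped. Without DMSO replicate 3 the difference was 4.42 points against 7.26 for the 269-base exon and -1.92 against -3.93 for the exon pair, and without palbociclib replicate 1 it was -2.47 for the pair. The 147-base intron before the exon was retained at 68.28% ± 3.92 and 68.57% ± 1.44.

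Of the 8 fitted events of CIRBP, 1 separated the groups. The differences of the 8 ran in both directions, from -15.79 to 14.77 points, with a median of -0.6 points. The 375-base intron at chr19:1272052-1272426 (plus strand) was retained at 27.0%, 26.8% and 21.8% in DMSO and at 29.2%, 30.0% and 28.8% with palbociclib. The means were 25.19% ± 2.98 and 29.34% ± 0.61 (SD, n = 3 each), and the event was not called. DMSO replicate 3 lay low, and without it the difference was 2.42 points against 4.14. The retained form went from 161.6 to 231.6 RPM, a ratio of 1.43, and the spliced form from 101.5 to 116.5, a ratio of 1.15. A 222-base exon, chr19:1273494-1273715, was included at 65.0%, 71.2% and 79.3% in DMSO and at 77.9%, 84.8% and 84.4% with palbociclib, with overlap. The CIRBP event with most reads, an 82-base intron, was at 4.3%, 3.3% and 3.8% against 4.1%, 4.1% and 3.3%. Its difference was 0.02 points and changed sign without 1 of several libraries.

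CLK1 showed no event whose groups lay apart. Its event with most reads, a pair of mutually exclusive exons, was at 52.0%, 55.2% and 58.2% in DMSO and at 56.4%, 53.5% and 53.1% with palbociclib. A 91-base exon, chr2:200860125-200860215 on the minus strand, was included at 84.8%, 71.4% and 86.2% in DMSO and at 87.1%, 84.5% and 82.2% with palbociclib. Apart from DMSO replicate 2, the 6 libraries lay between 82.2% and 87.1%, and without that replicate the difference was -0.90 points against 3.80. The 732-base intron at chr2:200856986-200857717 was retained at 7.87% ± 0.52 and 7.47% ± 1.08 (SD, n = 3 each).

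CLK4 was the only gene of the 7 with events that lay apart and lower. The 3 cassette exon forms between the same pair of outer exons were each read against a junction that skips chr5:178618779-178623255 (minus strand). The 59-base exon at chr5:178619838-178619896 was included at 14.7%, 21.4% and 23.4% in DMSO and at 10.1%, 10.1% and 11.3% with palbociclib. Its 836-base form, which extends to 178620673, was at 17.7%, 20.6% and 19.1% against 7.7%, 13.1% and 11.3%. The 67-base exon at chr5:178622393-178622459 was at 6.8%, 6.8% and 13.0% against 3.1%, 2.8% and 3.6%. The shared skipping junction had 80 to 98 reads per library in DMSO and 162 to 167 with palbociclib, which is 1.474 and 2.362 RPM, a ratio of 1.60, with no overlap. The ratio of the inclusion reads was 0.77, 0.82 and 0.52 for the 3 exons. These rested on 27 to 39, 132 to 237 and 8 to 20 inclusion reads per library. The inclusion reads of the 836-base form, in RPM, overlapped between the groups. Without DMSO replicate 3 the difference of the 67-base exon was -3.65 points against -5.71. Against shorter junctions the picture differed. The 59-base exon, read against the junction to the 67-base exon, was at 80.32% ± 4.95 in DMSO and 90.41% ± 9.87 with palbociclib (SD, n = 3 each), and the 67-base exon, read against the junction to the 59-base exon, at 36.1% ± 7.76 and 34.13% ± 7.63. Both overlapped, and the skipping form of the first had 0 to 5 reads per library.

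None of the CLK4 events was called. Both forms of the first exon overlap RN7SKP70, a pseudogene at chr5:178619728-178619998, so their reads may be shared with other copies and are uncertain. A 91-base exon further downstream, chr5:178617344-178617434, was included at 85.53% ± 6.05 and 92.31% ± 4.37 (SD, n = 3 each), a difference of 6.78 points that was 10.26 without DMSO replicate 1. The introns on either side of it were retained at 45.89% ± 3.68 against 40.21% ± 3.70 in DMSO and at 32.1% ± 1.44 against 28.24% ± 5.44. The groups overlapped in all 3.

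**Figure D3:**
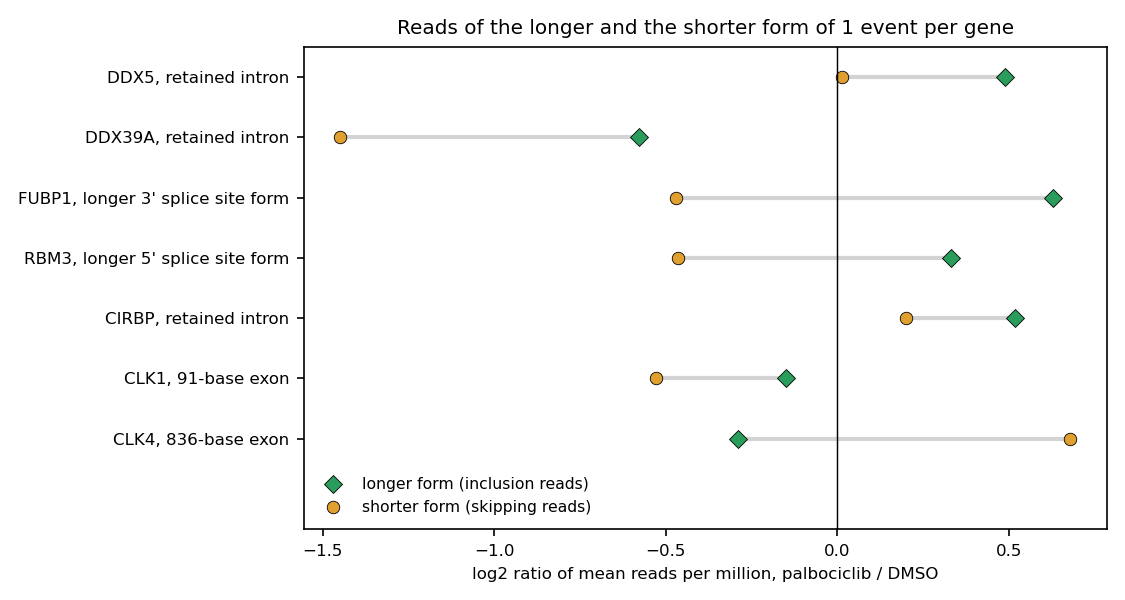
Change of the longer form (green diamonds) and of the shorter form (yellow circles) of 1 event per gene, as the log2 ratio of mean RPM in palbociclib to DMSO, 3 libraries each, with no error drawn. The ratios are not relative to the RNA level of the gene. In DDX5 the longer form moves up and the shorter one stays level. Both forms are lower in DDX39A, with the shorter one lowest. The forms move apart in FUBP1 and RBM3, and the order is turned round in CLK4.

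The RNA level of the same genes was read from FPKM in the same 6 libraries, so it is not independent of the splicing counts, although the genes were not chosen on it. By limma on log2(FPKM + 1), 4 of the 7 passed an adjusted p of 0.05 over all 15869 genes tested, beside 43.7 percent of those genes. Of these, 2 were higher and 2 lower, beside 20.9 and 22.9 percent. The groups lay apart for 4 of the 7, beside 54.7 percent. Each share is near the background and is not a result about these genes as a set.

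DDX5 stood at 377.0, 364.7 and 387.0 FPKM in DMSO and at 474.3, 384.9 and 426.2 with palbociclib. The groups overlapped, since palbociclib replicate 2 lay below DMSO replicate 3. The log2 difference was 0.18 ± 0.07 (SE), with a limma adjusted p of 0.0592, and it depended on single libraries. Omitting palbociclib replicate 1 gave 0.11 (limma adjusted p = 0.147), and omitting palbociclib replicate 2 gave 0.26 (limma adjusted p = 0.00741). The authors' deposited table gives 0.19 for DDX5 with an adjusted p of 0.00786. Quantile normalization also moved DDX5 past the threshold, with a limma adjusted p of 0.0374, while a fit with no intensity trend gave 0.107 and omitting any other single library gave 0.0801 to 0.157.

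DDX39A fell from 81.44, 82.71 and 85.87 FPKM to 39.71, 39.85 and 37.06, the largest change of the 7. It fell by 1.08 on the log2 scale (SE 0.04, limma adjusted p = 1.37e-07). FUBP1 fell from 107.1, 103.1 and 103.6 FPKM to 83.25, 84.89 and 81.39, by 0.33 on the log2 scale (SE 0.03, limma adjusted p = 6.88e-05). For both genes the groups lay far apart against their spread.

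RBM3 was at 70.46, 87.75 and 130.6 FPKM in DMSO and at 68.81, 86.75 and 106.9 with palbociclib. The spread within each treatment was wider than the difference between them, -0.11 ± 0.22 on the log2 scale (SE, limma adjusted p = 0.714), and the sign turned without DMSO replicate 3 (0.13) or palbociclib replicate 1 (0.05). In each treatment the library with the highest RBM3 level, replicate 3, had the lowest inclusion of the 416-base extension described above. The library with the lowest level, replicate 1, had the highest inclusion. The longer form was at 99.8, 109.6 and 102.7 RPM in DMSO and at 121.8, 135.9 and 134.8 with palbociclib. The shorter form, at 81.5, 116.6 and 203.2 against 66.21, 79.55 and 145.3 RPM, followed the order of the RNA level. RNA level and inclusion share reads, and their relation was not tested. CIRBP rose from 120.5, 117.3 and 140.9 FPKM to 166.0, 161.0 and 158.9, by 0.36 on the log2 scale (SE 0.06, limma adjusted p = 0.00212), with no overlap.

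CLK1 was at 23.32, 22.99 and 24.64 FPKM in DMSO and at 24.38, 25.9 and 28.18 with palbociclib, groups that overlapped. Its log2 difference was 0.14 ± 0.06 (SE, limma adjusted p = 0.0806). Omitting palbociclib replicate 1 gave 0.19 (limma adjusted p = 0.0334), omitting palbociclib replicate 3 gave 0.09 (limma adjusted p = 0.211), and omitting any other library gave an adjusted p of 0.071 to 0.199. Under quantile normalization the difference was 0.22 (limma adjusted p = 0.0166). CLK4 rose from 15.54, 14.49 and 15.7 FPKM to 16.54, 16.62 and 17.85, by 0.15 on the log2 scale (SE 0.05, limma adjusted p = 0.0416), with no overlap. This call sat at the threshold: leaving out DMSO replicate 1 or 2 gave a limma adjusted p of 0.0664 and 0.132, and leaving out palbociclib replicate 1, 2 or 3 gave 0.059, 0.0679 and 0.114. A fit with no intensity trend gave 0.0592, and quantile normalization gave a difference of 0.24 with a limma adjusted p of 0.00522.

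**Figure D4:**
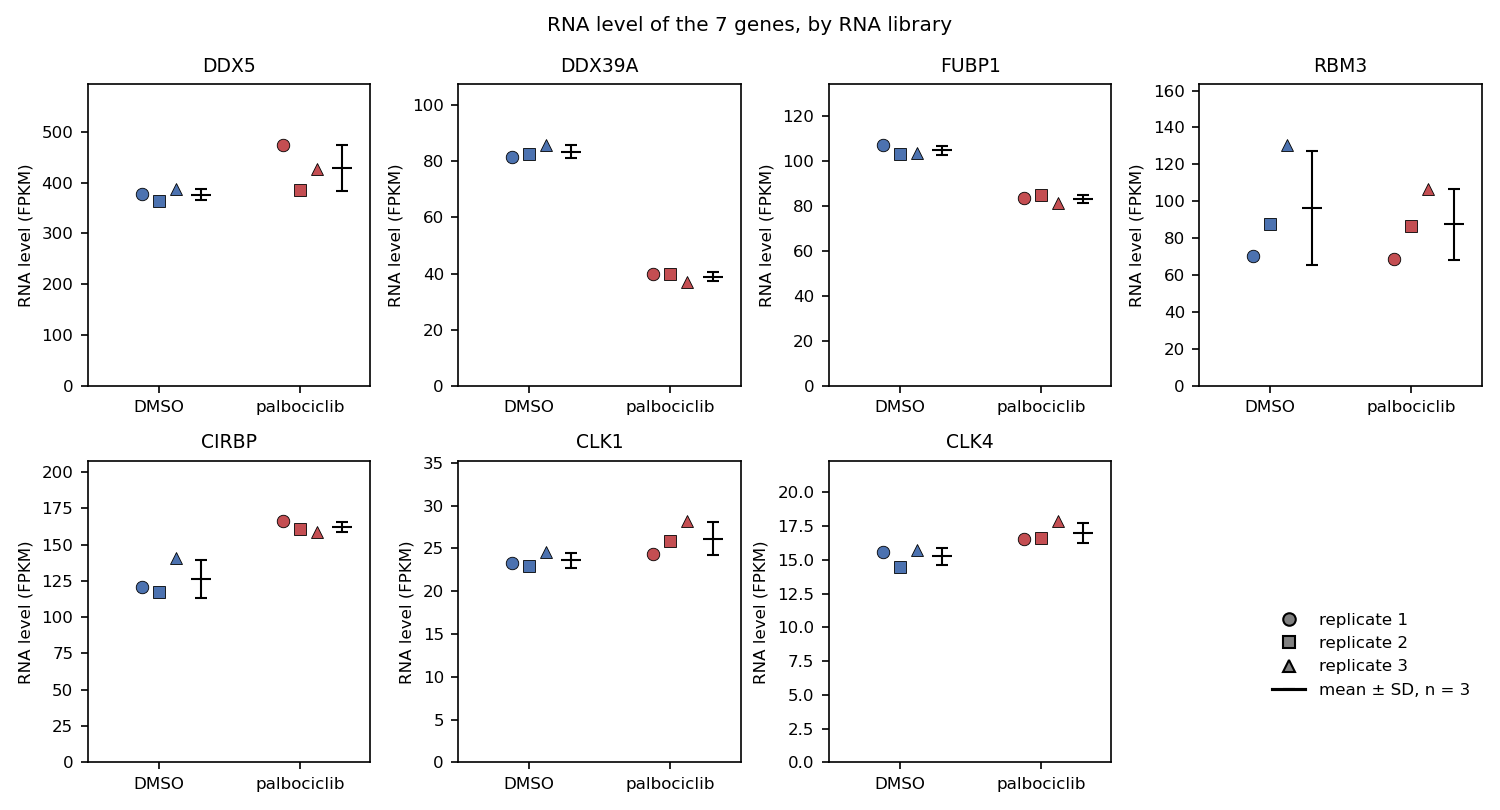
RNA level in FPKM (vertical axes, from 0) of the 7 genes in the 3 DMSO (blue) and 3 palbociclib (red) RNA libraries, with the symbol giving the replicate number and the bar the mean ± SD. DDX39A and FUBP1 are lower and CIRBP and CLK4 higher with palbociclib, each with groups that lie apart; RBM3 spans 68.81 to 130.6 FPKM mostly between replicates.

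For the 3 genes whose level changed by at least 0.3 on the log2 scale, the nearest other genes over the 6 libraries were found by Euclidean distance of log2(FPKM + 1) centred per gene. DDX39A lay nearest to HMGB1P6 (distance 0.072) and TUBA1C (0.074), an alpha-tubulin gene. FUBP1 lay nearest to CYREN (0.029) and COPS6 (0.042), a subunit of the COP9 signalosome. CIRBP lay nearest to ACKR2 (0.081), an atypical chemokine receptor, and FAM174A (0.085). Over 6 libraries in 2 groups, the distance is small for any gene with a treatment difference of like size.

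Accessible chromatin at the gene starts came from separate libraries. Of the 7 genes, 3 had a peak within 1 kb of a start, and 0 of these 3 peaks were called by edgeR, beside 12.9 percent of the 6411 peaks so placed in the genome. At an unadjusted p under 0.05 there were 0, and DESeq2 called 0. The DDX39A peak, chr19:14419045-14419756, was at 89.25, 92.22 and 93.93 CPM (counts per 1000000 reads in peaks, TMM-scaled) in DMSO and at 93.39, 87.8 and 79.63 with palbociclib, with overlap (log2 difference -0.08, edgeR adjusted p = 0.407). The DDX5 peak, chr17:64505434-64505659, was at 26.19 ± 0.83 and 24.24 ± 2.30 CPM (SD, n = 3 each, edgeR adjusted p = 0.433). This peak lay 278 bases from a start inside the gene. The outermost start of DDX5, at chr17:64506866, had no peak within 1 kb. The RBM3 start peak, chrX:48574049-48575017, was at 91.13, 88.77 and 89.07 against 87.39, 83.59 and 78.13 CPM, which lay apart but did not pass (edgeR adjusted p = 0.204). FUBP1, CIRBP, CLK1 and CLK4 had no peak within 5 kb of a start in the deposited peak set.

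A further RBM3 peak at the 3′ end of the gene, chrX:48580531-48581260, rose. It was at 10.22, 10.31 and 8.597 CPM in DMSO and at 15.81, 12.79 and 11.4 with palbociclib, with no overlap (log2 difference 0.46, edgeR adjusted p = 0.0127, beside 11.9 percent of all 38121 peaks called). DESeq2 gave an adjusted p of 0.0554. The call was lost without DMSO replicate 3 (edgeR adjusted p = 0.101) and without palbociclib replicate 1 (edgeR adjusted p = 0.201).

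The 250 bases before the start of DDX39A, chr19:14419384-14419633 on the minus strand (RefSeq, GRCh38.p14), are shown because this gene had the largest RNA change while its start peak did not pass the test. Capitals mark the 3 matches to CCAAT, searched on both strands. Of 35116 windows of the same length before gene starts, 32.0 percent hold CCAAT and 2.9 percent hold it 3 or more times. No match to TTTGAA (13.3 percent of windows), TTCCCGC (5.5 percent) or TGACGTCA (1.6 percent) was found in it. A match is a description of the letters and not a bound site.
DDX39A upstream: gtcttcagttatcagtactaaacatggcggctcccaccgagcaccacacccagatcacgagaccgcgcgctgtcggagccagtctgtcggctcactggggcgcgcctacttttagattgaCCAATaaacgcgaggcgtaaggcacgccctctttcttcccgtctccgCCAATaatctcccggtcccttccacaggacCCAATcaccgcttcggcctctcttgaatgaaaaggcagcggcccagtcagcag

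The wider families of these genes were counted from lists that were themselves drawn up with earlier results of these data known. Among 105 other genes on these lists, 101 were tested, and 13 were higher and 51 lower by limma at an adjusted p of 0.05. Over all genes tested, 20.9 percent were higher and 22.9 percent lower, and the family counts that follow stand beside the same shares. Their median log2 change was -0.14, beside 0.002 over all genes. Of their 530 fitted splicing events, 25 were called, which is 4.72 percent, beside 0.35 percent of all fitted events.

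Among 14 other genes of the TREX mRNA export complex and its partners, the setting in which DDX39A works, 7 were lower and 0 higher, with a median log2 change of -0.15. At an unadjusted p under 0.05, 9 differed. ALYREF, the adaptor that DDX39A helps load onto mRNA, fell from 116.6 to 58.62 FPKM, by 0.98 on the log2 scale. NXT1, the small subunit of the export receptor, fell by 0.57, and its partner NXF1 held the 1 called event of 59, with higher inclusion. Among 24 other DEAD-box helicases 10 were lower and 3 higher, and 7 of 124 events were called, 5 with higher and 2 with lower inclusion, in DDX3X, DDX46 and EIF4A2. DDX46, a helicase of the early spliceosome, fell by 0.49 on the log2 scale, and EIF4A1, the translation initiation helicase, fell by 0.39.

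All 6 tested glycine-rich RNA-binding relatives of RBM3 and CIRBP were lower, with a median log2 change of -0.43. HNRNPA2B1 fell from 685.7 to 462.5 FPKM and HNRNPA1 from 650.7 to 482.8, and these 2 held all 4 called events of 52, 1 with higher and 3 with lower inclusion. CIRBP itself moved the other way. In the FUBP and KH-domain list 5 of 10 tested genes were lower and 1 was higher. QKI fell by 0.45 on the log2 scale and KHSRP, a close relative of FUBP1, by 0.33, while PCBP4 rose by 0.38. None of the 69 events of that list was called by edgeR, 9 had an unadjusted p under 0.05, and DESeq2 called 1.

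Of the 6 other SR protein kinases tested, 3 were higher and 2 lower. CLK3 rose from 33.2 to 44.78 FPKM, by 0.42 on the log2 scale, and DYRK1B rose by 0.62, while SRPK1 fell by 0.20. None of their 23 events was called by edgeR, 1 had an unadjusted p under 0.05, and DESeq2 called 0. Among 15 factors of nonsense-mediated decay, the pathway that removes messages with a premature stop, 9 were lower and 1 higher, with a median log2 change of -0.19. MAGOHB and RBM8A, components of the exon junction complex, fell by 0.56 and 0.40. None of their 48 events was called by edgeR, 3 had an unadjusted p under 0.05, and DESeq2 called 0.

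Another 28 RNA-binding genes known for poison exons or detained introns included 13 that were lower and 5 that were higher. Of their 161 fitted events 13 were called, all with higher inclusion, in HNRNPH1, RBM25, RBM39, SNRNP70, SRSF3, SRSF6 and SRSF7. DESeq2 called 17. SRSF7, an SR protein, fell from 102.2 to 65.1 FPKM, by 0.64 on the log2 scale.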

How the data were processed

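The authors deposited FPKM per gene and library, a DESeq2 table of log2 fold changes with adjusted p-values, rMATS tables of inclusion and skipping read counts, and read counts per ATAC peak. Per the submitters' processing notes, the build was GRCh38 and the tools included fastp 0.23.2, Salmon 1.10.2, STAR 2.7.10b, Bowtie2 2.5.4-6 and MACS3 3.0.3-0. The rMATS version and counting strand are not given in the sources used here. Per the file headers, the authors ran featureCounts over 1 common peak set to give the ATAC counts, in reads. Replicate order within the splicing columns follows the labels.

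From these, inclusion levels were recomputed from the counts. Events with at least 20 reads per library in the mean and 5 percent of reads in the minor form were fitted with edgeR 4.0.16 (form by treatment, with library as a term), and p-values were adjusted by Benjamini-Hochberg within event type. Genes with a mean of at least 0.5 FPKM were tested with limma 3.58.1 on log2(FPKM + 1), which understates changes of low genes, and peaks with edgeR on TMM-scaled counts. DESeq2 1.42.0 was an alternative, in R 4.3.3. The scripts were tested on simulated data. RPM values are reads of a form scaled to 1000000 reads of its event table, and CPM values of peaks are scaled to TMM-adjusted totals. Replicates are 3 per group as labelled.

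The members and lists were chosen with earlier results of these data known. Values per library are given for events whose groups lie apart by at least 5 points, at most 4 a gene, and otherwise for the event with most reads. Events named beyond that rule were chosen after their values were seen: the 88-base and 334-base introns and the 2 exons of DDX39A, the RBM3 events other than the exon pair, the 375-base intron and 222-base exon of CIRBP, the exon and intron of CLK1, the last CLK4 exon and introns, and the other DDX5 introns and exon. At most 4 genes per list are named, and some list and marker genes are not reported here.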

Additional observations from a re-analysis of the deposited data

How the results depend on the processing

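The count of called splicing events among the 7 genes was 9 with all 6 RNA libraries. It was 4 without the minimum share of the minor form, when 151 events of these genes were fitted. Leaving out 1 RNA library at a time gave 6 to 10, and DESeq2, library totals, a minimum of 50 reads and adjustment over all event types gave 8 to 9. With DMSO replicate 1 or palbociclib replicate 3 left out, 1 called event had lower inclusion. The count of genes with a changed RNA level, 4, ran from 3 to 6 over the alternatives, and that of called start peaks stayed at 0. With single libraries left out, the 82-base CIRBP intron, at 0.02 points, ran from -0.24 to 0.28 points, turning negative when DMSO replicate 2 (-0.24), palbociclib replicate 1 (-0.13) or palbociclib replicate 2 (-0.09) was omitted. The CLK1 exon pair, at -0.78 points, ran from -2.36 to 0.74, and turned when DMSO replicate 3 was omitted. The 91-base CLK1 exon, at 3.80 points, ran from -0.90 to 6.49, and turned when DMSO replicate 2 was omitted. The RBM3 level, at -0.11 on the log2 scale, ran from -0.31 to 0.13, and turned when DMSO replicate 3 (0.13) or palbociclib replicate 1 (0.05) was omitted. The cause was not tested. Same-numbered libraries did not deviate together throughout: the correlations were 0.23, -0.005 and 0.148 for RNA level, 0.022, -0.004 and 0.052 for splicing and 0.005, 0.039 and -0.025 for ATAC, so no pairing was assumed. With a replicate block the count of called events was 14, of which 2 had lower inclusion, 6 genes instead of 4 changed in RNA level, DDX5 (limma adjusted p = 0.0314) and CLK1 (0.0351) being added, and start peaks stayed at 0. The shares of all fitted events, genes and peaks called at these other settings are not given here. Nothing is therefore read from these counts about the 7 genes as a set. The 2 FUBP1 exon forms rested on 1 to 5 skipping reads per library, which limits their precision.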
